A study of Mus musculus with 12 samples.

Results

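The genes described are those of the cytosolic ribosomal proteins, the proteins that together with ribosomal RNA build the 2 subunits of the cell's main ribosome. They were taken from the count table as the protein-coding genes named Rps or Rpl with a number and at most a short suffix, or Rplp0, Rplp1 and Rplp2. This gave 83 of 41128 genes, 32 of the small subunit and 51 of the large subunit, and 78 of them were among the 15347 genes with enough counts to be tested. The 12 RNA libraries are labelled as haemogenic endothelium of the mouse, an endothelium that gives rise to the first blood cells. A line derived from Ainv18 embryonic stem cells was used, in which doxycycline (Dox) switches on a Sox7 transgene, SOX7 being a transcription factor of early endothelium. At day 3.5 of differentiation FLK1+ cells were sorted out of the embryoid bodies, and they then grew for 48 h in liquid blast culture. Dox at 1 µg/ml was then present for 6, 12 or 24 h or was left out, with 2 libraries for Dox and 2 for no Dox at each hour. All 12 libraries carried the transgene, so an effect of Dox itself and one of SOX7 cannot be told apart. The labels do not say whether the 2 libraries of a group came from separate cultures, and all p-values therefore reflect only how far these samples spread, which may be technical.

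Ribosomal proteins are made in near-equal numbers and assembled on ribosomal RNA in the nucleolus. Their mRNAs are among the most abundant of a growing cell. They begin with a C and a run of pyrimidines, the terminal oligopyrimidine (TOP) motif, through which mTORC1 and LARP1 control their translation and stability, and MYC proteins raise their transcription together with that of the assembly factors. Their mRNAs have left many processed copies in mammalian genomes, which are intronless and can be nearly identical to the parent mRNA.

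The letters at the start of transcription are given because the TOP motif lies at this place. Shown are genes called in a Dox comparison, or called lower at 24 h than at 12 h with and without Dox. Rps14, also called lower in both, is not shown. Each line gives 30 bases before the annotated start and 20 bases from it onwards, read from the RefSeq table of promoters on GRCm38.p6, and capitals mark a run of 8 or more C or T within 20 bases of the start.
Rpl5 (chr5:107900498-107900547, plus strand): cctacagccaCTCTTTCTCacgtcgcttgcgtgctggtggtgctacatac
Rpl10a (chr17:28328441-28328490, plus strand): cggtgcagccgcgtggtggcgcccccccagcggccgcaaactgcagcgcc
Rpl12 (chr2:32961682-32961731, plus strand): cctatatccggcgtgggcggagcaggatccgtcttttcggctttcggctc
Rpl14 (chr9:120571487-120571536, plus strand): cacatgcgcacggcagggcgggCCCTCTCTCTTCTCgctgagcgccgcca
Rpl15 (chr14:18270967-18271016, minus strand): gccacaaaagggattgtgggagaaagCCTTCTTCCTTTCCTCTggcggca
Rpl23 (chr11:97782420-97782469, minus strand): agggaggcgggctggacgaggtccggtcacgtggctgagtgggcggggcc
Rpl7l1 (chr17:46782637-46782686, minus strand): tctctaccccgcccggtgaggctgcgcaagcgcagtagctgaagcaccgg
Rplp0 (chr5:115559437-115559486, plus strand): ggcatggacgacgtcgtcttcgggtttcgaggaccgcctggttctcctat
Rps13 (chr7:116334171-116334220, minus strand): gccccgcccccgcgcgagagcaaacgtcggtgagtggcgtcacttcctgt
Rps26 (chr10:128626487-128626536, minus strand): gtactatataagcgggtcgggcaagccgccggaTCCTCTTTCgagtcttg
Rpl14 and Rpl15 held long runs close to the start, Rps26 and Rpl5 shorter ones, and the other 6 genes, Rpl10a, Rpl12, Rpl23, Rpl7l1, Rplp0 and Rps13, none that was marked.

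The table held 62 of the 83 genes. A run of 8 or more C or T on the sense strand, within 20 bases of the start, was present in 28 of the 62, or 45.2%, against 15.9% of all 27025 genes of the table. The hexamer CGGAAG, the core bound by ETS factors, was found on either strand in the window of 250 bases before to 50 after the start in 41 of the 62, or 66.1%, against 17.2% of all. AACAAT, a core bound by SOX factors, was found on either strand in 2 of the 62, Rps9 and Rps25, or 3.23%, against 10.9% of all. These matches describe letters in these windows and not bound sites.

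Coding stretches of 2 genes are shown beside those of a processed copy, because reads from them can match both places. They were read from the GENCODE M21 transcripts on GRCm38, and capitals mark the bases that differ.
Rps16 and Rps16-ps2 (coding bases 1 to 75, alike in both): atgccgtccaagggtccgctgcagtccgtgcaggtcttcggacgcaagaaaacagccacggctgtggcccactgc
Rps3a1 (coding bases 186 to 260): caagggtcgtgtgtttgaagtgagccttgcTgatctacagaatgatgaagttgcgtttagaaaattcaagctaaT
Rps3a3 (the same stretch): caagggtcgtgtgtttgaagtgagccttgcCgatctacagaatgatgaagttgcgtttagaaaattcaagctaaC
Rps16 encodes a small-subunit protein and lies at chr7:28350652-28352696 on the plus strand in 5 exons, while Rps16-ps2 is an annotated pseudogene at chr5:129128077-129128517 on the minus strand. Their 438 coding bases had 0 differences. Rps3a1, at chr3:86137940-86142702 on the minus strand, and Rps3a3, at chr13:108670603-108671397 on the plus strand, differed at 9 of 792 coding bases. A read of 75 bases from such a stretch matches both places equally well or nearly so.

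Facts of the whole series are given briefly. The libraries held 13485804 to 35250074 counts, with 1 library of at most 15429846 and 1 of at least 27516106 counts in every group. Sox7, whose row may hold reads of the transgene as well as of the gene itself, was higher with Dox at every hour, for instance 331 and 337 CPM (counts scaled to the same library size) with Dox at 24 h against 52.1 and 52.5 CPM without. All 8 endothelial markers and all 6 haemogenic markers were detected, with summed levels of 1958 to 2862 CPM and 394 to 598 CPM. The 5 pluripotency markers summed to 4.56 to 8.76 CPM, and 6 smooth muscle markers to 6192 to 8713 CPM. The part of other cells in the results below was not tested. In such bulk libraries, fewer cells of a type and less RNA per cell cannot be told apart.

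Counts on these genes were few for genes of the ribosome, and they were spread unevenly. All 83 together took 0.883% to 1.17% of the counts of a library. Per length, on the RPKM scale the authors deposited, the highest mean levels over the 12 libraries were those of Rpl8, at 1054 RPKM, of Rplp1, at 1003 RPKM, and of Rpl32, at 935 RPKM. The lowest among tested genes were 0.520 RPKM for Rpl29, 0.573 RPKM for Rpl38 and 0.576 RPKM for Rps29, although the proteins are equal parts of the same particle. Rpl24, with 49 counts over all 12 libraries, and Rps27, with 57, had too few counts to be tested, and so did the paralogs Rpl3l with 31, Rpl39l with 7 and Rpl10l with 2. RPL3L is known from striated muscle, and RPL10L and RPL39L from the testis.

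Counts also lay on processed copies of these genes. Of the 82 genes that could be searched, all but Rps4l, 75 shared at least 1 coding word of 75 bases with an annotated pseudogene. There were 434 such pseudogenes in all, of which 392 had counts. These copies together held 1756658 counts, against 2790537 on the genes themselves, and for 33 genes the copies held more than the gene. Genes and copies together took 1.43% to 1.93% of the counts of a library. Rps3a1 had 232 counts in all libraries together and Rps3a3 89164. The gene with introns held few of the counts of its family. Rps16 had 259 counts, against 81694 on its identical copy Rps16-ps2. Rpl37 had 377 counts and Rpl37rt 73127, Rpl24 had 49 and Gm12254 34214. At the other end genes such as Rps3, Rps9, Rpl23 and Rplp2 had no such pseudogene, and Rps26 had 57040 counts against 21 on its single pseudogene. Values below are those of the gene's own row. Results with all copies added are given for some genes and comparisons only, and adding copies changed other calls too.

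Levels were also lower where fewer words of the transcript are unique. Across the 82 genes with a protein-coding transcript in the annotation, a median of 52.06% of the 75-base words of the transcript occurred in no other gene, with 1.48% for Rps27 and 100% for Rps3. The median level was 3.92 RPKM for the 18 genes with under 25% unique words, 15.7 RPKM for the 45 between, and 86.5 RPKM for the 19 with over 75%. Counting only words that lie within 1 exon and are unique, the 9 genes with at most 5% had a median of 2.10 RPKM, the 20 genes between 5% and 20% had 6.13 RPKM, and the 53 above had 34.9 RPKM. How reads that match several places, or that cross an intron, were counted is not given in the sources used here. Levels across these genes therefore describe the counting as well as the cells. A ratio of the same gene between libraries shares its counting, yet Dox calls for Rpl5, Rps13 and Rpl10a below were lost when copies were added.

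**Figure D1:**
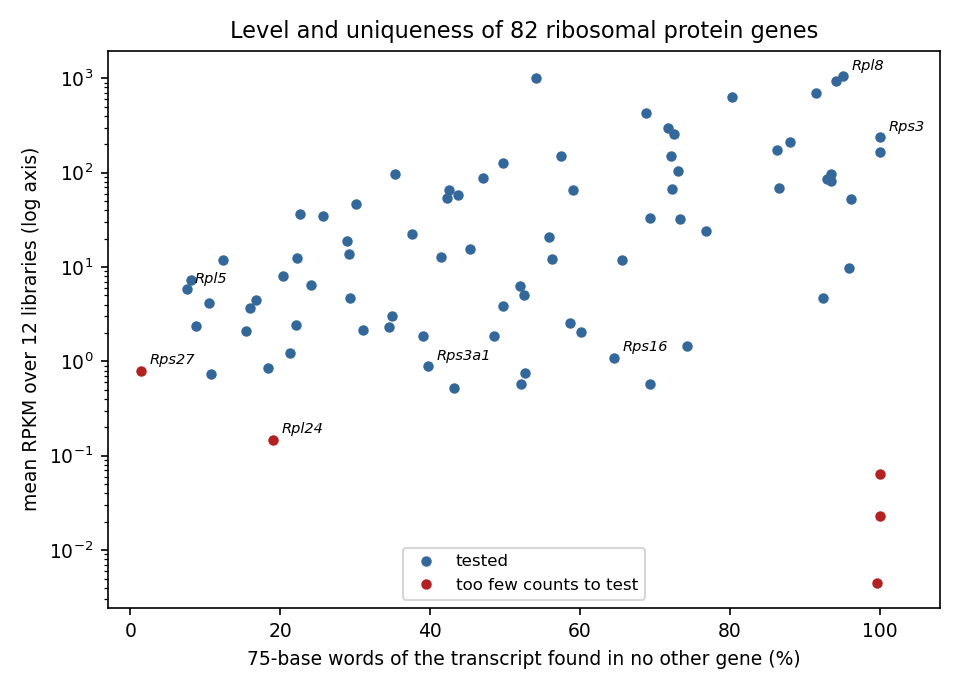
Share of the 75-base words of each gene's transcript that occur in no other gene (x axis, %) against its mean level over the 12 libraries (y axis, RPKM, log axis), for 82 ribosomal protein genes, with genes that had too few counts to test in red. Genes with few unique words lie lower, from a median of 3.92 RPKM under 25% to 86.5 RPKM over 75%.

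Dox for 6 h was compared with no Dox to find the earliest response. No ribosomal protein gene was called in edgeR's quasi-likelihood test, with p-values adjusted by the Benjamini-Hochberg method over all 15347 genes and a call at an adjusted p under 0.05. Of all tested genes 1.54% were called. DESeq2 and limma on RPKM also called 0 of the 78, and 8 had an unadjusted p under 0.05 in edgeR. The share of all genes under that unadjusted p is not given, so the 8 cannot be set against it. The median log2 fold change (Dox over no Dox) of the 78 genes was 0.04, against 0.01 over all genes.

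The 3 genes with the smallest p at 6 h were Rps27l, Rpl35a and Rpl22l1. Rps27l, a paralog of Rps27 that p53 activates, had 177 and 230.2 CPM with Dox, against 192 and 150.4 CPM without. Rpl35a, a large-subunit gene mutated in Diamond-Blackfan anaemia, had 81.3 and 111 CPM with Dox and 89.5 and 69.7 CPM without. In both genes the groups overlapped, and the fitted log2 fold changes were 0.25 ± 0.090 and 0.27 ± 0.103 (SE, n = 2 and 2), with adjusted p = 0.234 and 0.281. Rpl22l1, the paralog that can replace RPL22 in the large subunit, had 7.14 and 8.49 CPM with Dox and 6.04 and 5.93 CPM without, a difference of 0.40 in log2 with an adjusted p of 0.376 in edgeR's test. The library pairs disagreed at 6 h. In the libraries numbered 1, the median difference of the 78 genes was -0.11 in log2 and 58 genes were lower with Dox. In those numbered 2 it was 0.17 and 20 were lower. Of all genes, 50.6% and 49.9% were lower in these pairs. Without the first Dox library 3 genes were called and without the first no Dox library 1, in fits where the lone library left in a group is assumed to vary like the other groups. The share of all genes called in those fits is not given. Between the 2 deep libraries the median difference was 0.05 and between the 2 shallow ones 0.01.

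After 12 h of Dox, 4 of the 78 genes fell and none rose. They were Rpl23, Rpl7l1, Rpl5 and Rps26, or 5.13% of the 78 against 3.51% of all tested genes that fell and 3.26% that rose. The median of the 78 was -0.10 in log2, and 30 genes had both Dox libraries below both no Dox libraries, or 38.5%, against 25.7% of all genes. The summed level of 6 leukocyte markers was 29.2 to 33.8 CPM with Dox at 12 h and 37.7 to 41.9 CPM without, and that of 8 erythroid markers was 505 to 531 CPM with Dox and 276 to 387 CPM without. The part of these cells was not tested.

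Rpl23, a large-subunit protein near the mouth of the peptide exit tunnel, had 268 and 264 CPM with Dox at 12 h, against 318 and 301 CPM without. The groups did not overlap, and the log2 fold change was -0.22 ± 0.056 (SE, n = 2 and 2; edgeR adjusted p = 0.0155). No pseudogene shares a coding word of 75 bases with Rpl23, and 72.18% of the words of its transcript were unique.

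Rpl7l1, a paralog of Rpl7, had 132 and 137 CPM with Dox and 153 and 155 CPM without. Its 2 Dox libraries lay below both others, by -0.20 ± 0.052 in log2 (SE, n = 2 and 2; edgeR adjusted p = 0.0183). Rpl5, whose protein binds 5S ribosomal RNA together with RPL11 and restrains MDM2, had 23.2 and 22.4 CPM with Dox and 31.3 and 26.8 CPM without. The groups did not overlap, and the log2 fold change was -0.33 ± 0.091 (SE, n = 2 and 2; edgeR adjusted p = 0.0231). Rps26, at the channel through which mRNA leaves the small subunit, had 197 and 175 CPM with Dox and 225 and 213 CPM without, also without overlap. Its log2 fold change was -0.23 ± 0.065 (SE, n = 2 and 2; edgeR adjusted p = 0.0283).

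The count at 12 h differed between fits that leave out 1 library. Here and below these fits make the same assumption, and the share of all genes called in them is not given. It was 0 without the first no Dox library or without the second Dox library, 1 without the first Dox library and 9 without the second no Dox library. It was 1 with limma on RPKM. The median difference was -0.05 between the deep libraries, where 52 of the 78 genes were lower with Dox, against 52% of all genes. Between the shallow ones it was -0.14 and 61 were lower, against 51.7% of all genes. With the counts of the copies added, Rps26, Rpl23 and Rpl7l1 were still called, against 3.36% of all genes lower in that fit, and Rpl5 had a log2 fold change of -0.19 with an adjusted p of 0.185 in edgeR's test.

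After 24 h of Dox, 2 of the 78 genes rose and none fell, or 2.56% against 4.5% of all tested genes that rose and 6.52% that fell. The median of the 78 was 0.01 in log2, and 17 genes had both Dox libraries above both no Dox libraries, or 21.8%, against 23.5% of all genes. In either direction 11% of all genes were called at this hour. Blood cell markers differed between the groups too, with 5 of 6 leukocyte markers and 7 of 8 erythroid markers lower with Dox. The leukocyte sum was 35.5 to 40.9 CPM with Dox and 94.4 to 100.7 CPM without, the erythroid sum was 454 to 512 CPM with Dox and 588 to 660.1 CPM without, and the part of these cells was not tested. The 2 genes were Rps13 and Rpl10a, and both are genes for which most counts lay on copies.

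Rps13, a small-subunit gene, had 34 and 16 counts in the Dox libraries and 2 and 16 counts in the no Dox libraries, which are 1.12 and 1.15 CPM with Dox against 0.140 and 0.486 CPM without. The groups did not overlap on the CPM scale, and the log2 fold change was 1.59 ± 0.504 (SE, n = 2 and 2; edgeR adjusted p = 0.0376), resting on these few reads. With its copies, which held 8321 counts over all libraries against 224 on the gene, it was 0.09 with an adjusted p of 0.718 in edgeR's test. Rpl10a, of the large subunit, had 25.4 and 28.7 CPM with Dox and 21.3 and 22.3 CPM without, again with no overlap. The log2 fold change was 0.29 ± 0.096 (SE, n = 2 and 2; edgeR adjusted p = 0.0464), and with the copies added it was -0.03 with an adjusted p of 0.893. Rpl23, next by p, had 292 and 294 CPM with Dox and 263 and 276 CPM without, which is 0.12 in log2 with an adjusted p of 0.214 in edgeR's test. The count was 0 without the first no Dox or the second Dox library, 1 without the second no Dox library and 3 without the first Dox library, and DESeq2 called 0. The median difference was 0.09 between the deep libraries and -0.09 between the shallow ones, so its sign differed between depths.

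**Figure D2:**
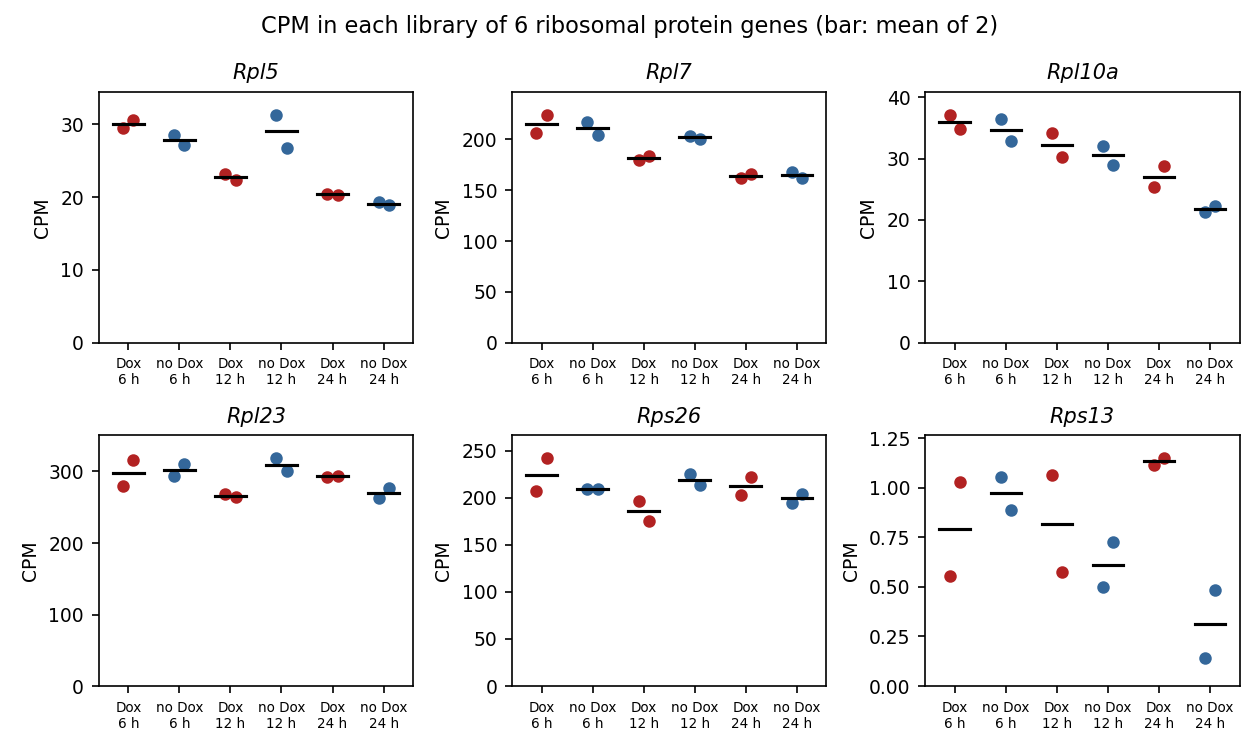
CPM in each of the 12 libraries (y axis, from 0) for Rpl5, Rpl7, Rpl10a, Rpl23, Rps26 and Rps13, by hour, with Dox in red left of no Dox in blue, and bars for the mean of 2 libraries. Rpl5, Rpl23 and Rps26 are lower with Dox than without at 12 h, and Rpl5, Rpl7 and Rpl10a are lower at 24 h than at 6 h in both groups.

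The effect of Dox was then compared between hours. From 6 h to 12 h it differed for 0 of the 78 genes in edgeR's test, against 0.417% of all genes in either direction. DESeq2 and limma also called 0, and the median difference was -0.13 in log2. An unadjusted p under 0.05 in edgeR was found for 20 genes, with no share of all genes to set beside it. Leaving out 1 library at a time, the median difference of the 78 genes lay between -0.23 and -0.017. From 12 h to 24 h it differed for Rpl23 only, against 1.21% of all genes. The unadjusted p in edgeR was under 0.05 for 9 genes, again with no share of all genes beside it. The Dox effect on Rpl23 was 0.33 ± 0.079 higher in log2 at 24 h than at 12 h (SE, 2 libraries a group; edgeR adjusted p = 0.0257), and limma on RPKM did not call it. This call was lost without the first no Dox library or the first Dox library of 12 h, and without any 1 of the 4 libraries of 24 h. Rps26 had a like difference of 0.31 with an adjusted p of 0.0956 in edgeR's test.

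**Figure D3:**
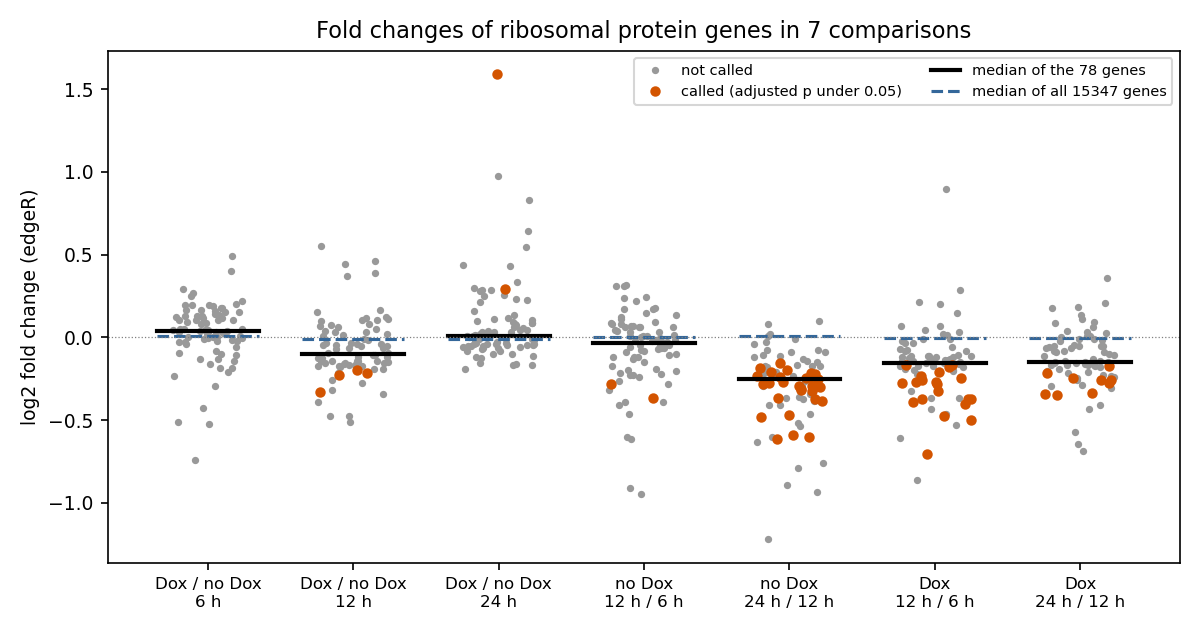
Log2 fold changes from edgeR (y axis) of the 78 tested ribosomal protein genes in 7 comparisons, with called genes in orange, the median of the 78 as a black bar and the median of all 15347 genes as a blue dashed bar. The median lies lowest for no Dox at 24 h over 12 h, at -0.25, where 29 genes are called.

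In cells without Dox, 29 of the 78 genes were lower at 24 h than at 12 h and none was higher, or 37.2% against 10.2% of all tested genes that fell and 12.2% that rose. The median was -0.25 in log2, against 0.01 over all genes, and 74 of the 78 had a negative fold change. Both subunits were among them, with 10 of 31 small-subunit genes and 19 of 47 large-subunit genes. In 54 genes, or 69.2%, both 24 h libraries lay below both 12 h libraries, against 28.9% of all genes.

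Rpl5 had the smallest adjusted p, with 19.3 and 18.9 CPM without Dox at 24 h against 31.3 and 26.8 CPM at 12 h. The groups were well apart, and the log2 fold change was -0.59 ± 0.093 (SE, n = 2 and 2; edgeR adjusted p = 2.31e-05). Rpl7, a large-subunit gene, had 168 and 162 CPM at 24 h and 203 and 201 CPM at 12 h, also with no overlap, and a log2 fold change of -0.29 ± 0.053 (SE, n = 2 and 2; edgeR adjusted p = 0.000163). Rpl10a had 21.3 and 22.3 CPM at 24 h and 32.1 and 28.9 CPM at 12 h, a log2 fold change of -0.47 ± 0.095 (SE, n = 2 and 2; edgeR adjusted p = 0.000511). The copies of each of these 3 genes held more counts than the gene, and all 3 were called with the copies added.

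The fall was also present in genes that share no coding word of 75 bases with an annotated pseudogene. Rps3, at the entry of the mRNA channel of the small subunit, had 1084 and 1022 CPM without Dox at 24 h and 1368 and 1211 CPM at 12 h. Both 24 h libraries lay below both 12 h libraries, and the log2 fold change was -0.29 (edgeR adjusted p = 0.00338). Rps9 of the small subunit, at -0.30, was called too, as was Rpl23 at -0.20. Rplp2, also without such a pseudogene, had -0.23 and an adjusted p of 0.0598. With the copies of each gene added to its counts, 44 of 79 genes were lower at 24 h, against 11.4% of all genes, and 28 of the 29 were among the 44. The family of Rps16 and its copies then had -0.26 (edgeR adjusted p = 0.00599) and that of Rps3a1 -0.22 (edgeR adjusted p = 0.00853).

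Within the deep and within the shallow libraries the untreated cells gave the same direction, with a median of -0.18 and -0.27 in log2. In each, 72 of the 78 genes were lower at 24 h, against 48.8% and 48.1% of all genes. The count of 29 was 8 without the second no Dox library of 24 h, 12 without the first no Dox library of 12 h, 21 without the first of 24 h and 32 without the second of 12 h. DESeq2 and limma on RPKM each called 14 genes, all lower, again without the share of all genes called in these fits.

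**Figure D4:**
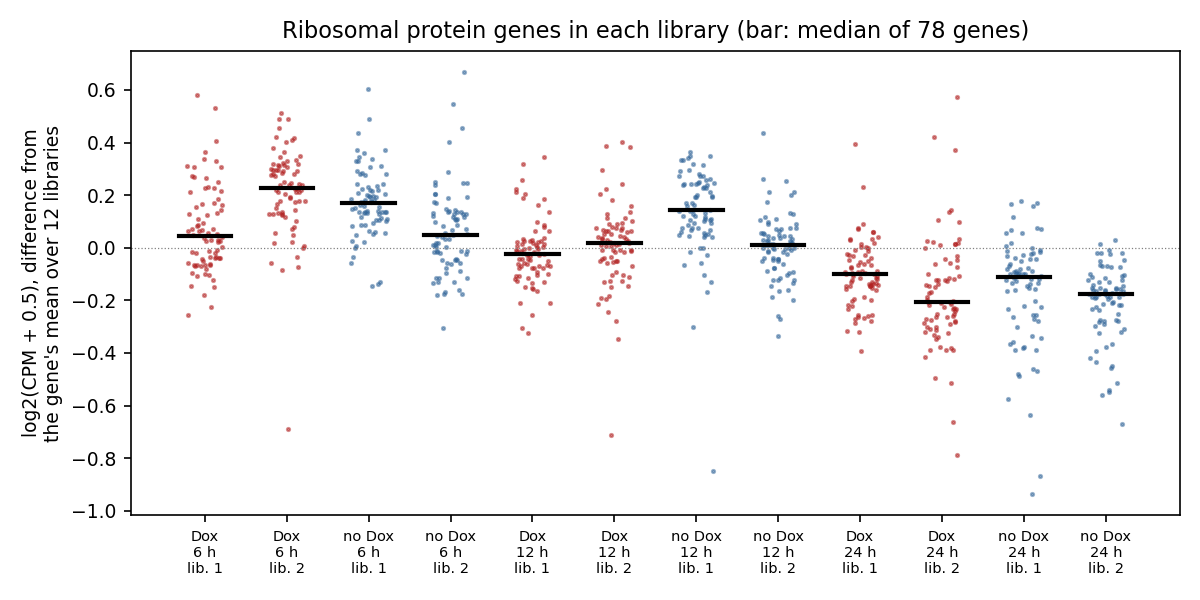
Log2(CPM + 0.5) of 78 ribosomal protein genes in each of the 12 libraries, as the difference from each gene's mean over all libraries (y axis), with Dox in red and no Dox in blue and a black bar at the median. The medians of the 24 h libraries lie between -0.21 and -0.10 and those of the 6 h libraries between 0.04 and 0.23.

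Between 6 h and 12 h without Dox, 2 of the 78 genes fell, or 2.56% against 3.07% of all tested genes that fell, and the median was -0.04. Rpl27, mutated in Diamond-Blackfan anaemia, had 37.9 and 37.9 CPM at 12 h and 47.1 and 44.8 CPM at 6 h, a log2 fold change of -0.28 (edgeR adjusted p = 0.0228). Rpl10, which joins the large subunit late in its assembly, had 16.4 and 14.9 CPM at 12 h and 20.7 and 18.97 CPM at 6 h, a log2 fold change of -0.37 (edgeR adjusted p = 0.0452). Neither gene's groups overlapped. The median difference was -0.14 between the deep libraries and 0.13 between the shallow ones. The count was 0 without either 6 h library and 1 without the first 12 h library.

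In cells with Dox the fall was already called at 12 h. At that hour, 20 of the 78 genes were lower than at 6 h and none was higher, or 25.6% against 10.1% of all tested genes that fell, with a median of -0.16 in log2. Rpl7l1 had 132 and 137 CPM with Dox at 12 h and 167 and 169 CPM at 6 h, which is -0.32 ± 0.052 in log2 (SE, n = 2 and 2; edgeR adjusted p = 5.37e-05). Rps6, the small-subunit protein that S6 kinase phosphorylates, had 4.89 and 5.39 CPM at 12 h and 7.41 and 8.96 CPM at 6 h, a log2 fold change of -0.71 (edgeR adjusted p = 0.00294). In both genes the groups were apart. Over the same hours with Dox, the erythroid sum was 505 to 531 CPM at 12 h against 256 to 260.4 CPM at 6 h, with 2 of 8 markers higher. The leukocyte sum was 29.2 to 33.8 CPM at 12 h against 21.3 to 22.8 CPM at 6 h, with 3 of 6 higher. Of 6 smooth muscle markers 4 were lower, among them Cnn1 at -1.25 in log2, and 1, Col1a1, was higher, and the part of these cells was not tested. The count of 20 was 2 without the second Dox library of 6 h, 8 without the second and 11 without the first of 12 h, and 27 without the first of 6 h, and DESeq2 called 9. With the copies of each gene added, 17 of 79 genes were lower, and 13 of the 20 were among them. The share of all genes lower in that fit is not given. The median difference was -0.25 between the deep libraries and -0.04 between the shallow ones. As given above, no gene's course from 6 h to 12 h differed between Dox and no Dox cells in the test of that difference.

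From 12 h to 24 h with Dox, a further 9 of the 78 genes were lower and none was higher, or 11.5% against 5.98% of all tested genes that fell, with a median of -0.15. Rps2, of the small subunit, had 30.8 and 28.2 CPM with Dox at 24 h and 36.5 and 38.7 CPM at 12 h, a log2 fold change of -0.33 (edgeR adjusted p = 0.00365). Rpl14 had 139 and 121 CPM at 24 h and 154 and 157 CPM at 12 h, which is -0.26 (edgeR adjusted p = 0.00924), and Rpl15 had 79.4 and 72.7 CPM at 24 h and 89.8 and 87.1 CPM at 12 h, which is -0.21 (edgeR adjusted p = 0.031). In all 3 the 24 h libraries lay below the 12 h libraries. The count of 9 was 2 without the second Dox library of 24 h, 3 and 4 without the second and first of 12 h, and 14 without the first of 24 h, DESeq2 called 4, and upper-quartile scaling 3 lower and 1 higher. With the copies of each gene added, 12 of 79 genes were lower, and 6 of the 9 were among them, again without a share of all genes. The median difference was -0.07 between the deep libraries and -0.19 between the shallow ones.

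The courses from 12 h to 24 h with and without Dox rest on separate libraries. Lower in both were Rpl10a, Rpl12, Rpl14, Rpl15, Rplp0 and Rps14, which are 6 of the 9 genes lower with Dox, or 66.7%, and 20.7% of the 29 lower without it. In 61 of the 78 genes the fold change was negative in both. Of the genes lower without Dox, the C or T run at the start was present in 10 of the 20 in the RefSeq table, or 50%, against 17 of the 37 tested genes that were not called, or 45.9%.

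**Figure D5:**
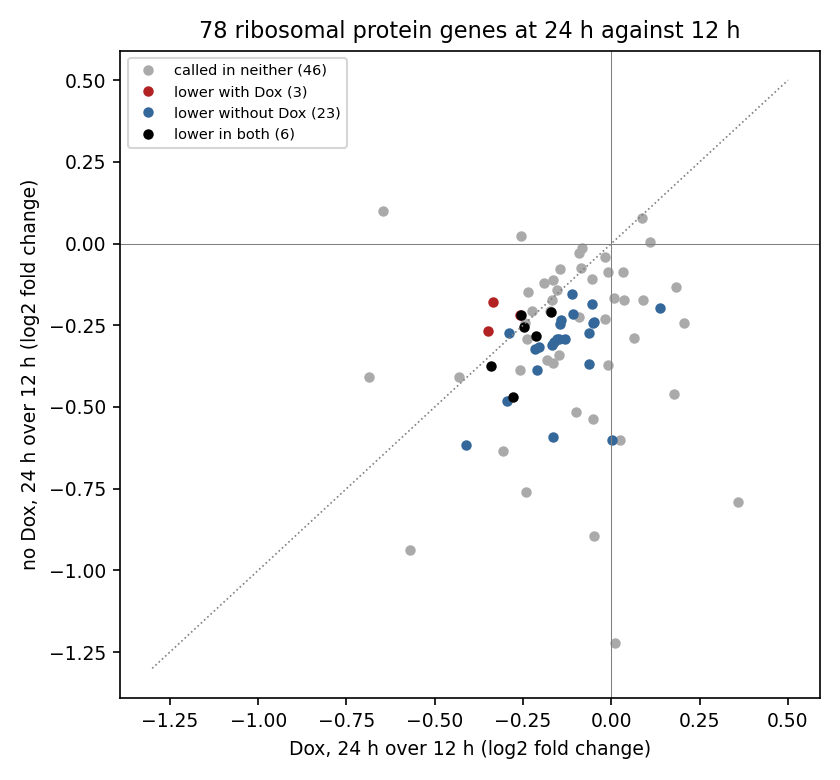
Log2 fold change at 24 h over 12 h with Dox (x axis) and without Dox (y axis) for 78 ribosomal protein genes, coloured by the group in which they were called lower, with the diagonal dotted. Most points lie below 0 on both axes, and 6 genes are called in both groups.

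Markers of several cell types moved over the same hours. The summed level of 6 leukocyte markers was 94.4 to 100.7 CPM without Dox at 24 h against 37.7 to 41.9 CPM at 12 h, and all 6 rose. That of 8 erythroid markers was 588 to 660.1 CPM at 24 h against 276 to 387 CPM at 12 h, and 6 rose. With Dox, the leukocyte sum was 35.5 to 40.9 CPM at 24 h against 29.2 to 33.8 CPM at 12 h, and the erythroid sum was 454 to 512 CPM at 24 h against 505 to 531 CPM at 12 h. The sum of 8 endothelial markers was 1958 to 1986 CPM without Dox at 24 h against 2127 to 2355 CPM at 12 h, and 4 fell, among them Tek and Kdr. The smooth muscle sum was 8431 to 8713 CPM without Dox at 24 h against 7237 to 7626 CPM at 12 h, with Des and Col1a1 higher and Tagln lower. With Dox, the endothelial sum was 2310.4 to 2426 CPM at 24 h against 2516 to 2638 CPM at 12 h, and the smooth muscle sum was 8137 to 8152 CPM at 24 h against 6192 to 7008 CPM at 12 h. No marker of these lists was at 0 in all libraries. The part of these cells in the fall of ribosomal protein genes was not tested.

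The stalk of the large subunit, which recruits elongation factors, is built from RPLP0 and pairs of RPLP1 and RPLP2. Rplp0 had 429 and 415 CPM without Dox at 24 h and 484 and 491 CPM at 12 h, with no overlap and a log2 fold change of -0.21 (edgeR adjusted p = 0.00817). Rplp1 had 567 and 496 CPM at 24 h and 580.5 and 538 CPM at 12 h, which overlapped, and a log2 fold change of -0.08 (edgeR adjusted p = 0.485). Rplp2 had 53.0 and 47.8 CPM at 24 h and 66.1 and 53.0 CPM at 12 h. None of the 3 was called for Dox at any hour, and their log2 fold changes for Dox lay between -0.17 and 0.04.

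Of the paralogs, Rpl7l1 was called in the comparisons given above, and Rpl22l1 and Rps27l in none. Rpl22 had 255 and 245 CPM without Dox at 24 h and 302 and 279 CPM at 12 h, without overlap, and a log2 fold change of -0.22 (edgeR adjusted p = 0.0258). Its paralog Rpl22l1 had 6.65 and 4.98 CPM at 24 h and 8.62 and 6.69 CPM at 12 h, which is -0.41 with an adjusted p of 0.0891. Rps27l had a log2 fold change of -0.04 (edgeR adjusted p = 0.806), Rpl3 of -0.08 (edgeR adjusted p = 0.764) and Rpl39 of 0.01 (edgeR adjusted p = 0.987) in the same comparison. Rps4l, with 58.5 to 74.6 CPM over the 12 libraries, and Rps4x, with 126 to 167 CPM, had 0.08 and -0.01 there.

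Diamond-Blackfan anaemia is a failure of red cell formation caused by loss of 1 copy of a ribosomal protein gene, and 16 of the mouse genes whose human counterparts are listed for it were tested. Of these, 6 were lower without Dox at 24 h than at 12 h, against 10.2% of all genes and 29 of the 78 ribosomal protein genes. With Dox at 12 h, 2 of the 16, Rpl5 and Rps26, were lower, against 3.51% of all genes. Rps19, the gene most often mutated, had 10.2 and 9.07 CPM without Dox at 24 h and 11.6 and 9.42 CPM at 12 h, which overlapped (log2 fold change -0.11, edgeR adjusted p = 0.618). Rpl11, which partners RPL5 on 5S ribosomal RNA, had 4.43 and 5.34 CPM at 24 h and 4.77 and 5.84 CPM at 12 h, which also overlapped (log2 fold change -0.12, edgeR adjusted p = 0.698). Rpl38, known in mouse for the translation of Hox mRNAs, had at most 0.693 CPM in any library and was called in no comparison. Rps6 was near the threshold without Dox at 24 h over 12 h, at -0.46 with an adjusted p of 0.0511 in edgeR's test. Rpl11, Rpl38 and Rps6 each had a copy with more counts than the gene.

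A list of 5 genes of ribosomal proteins outside the name pattern was looked at in the same way. Rack1, a scaffold on the small subunit, had 1410.2 and 1367 CPM without Dox at 24 h and 1769 and 1598 CPM at 12 h, with no overlap and a log2 fold change of -0.28 (edgeR adjusted p = 0.000932). Rpsa fell by 0.21 in log2 there (edgeR adjusted p = 0.0185), and 2 of the 5 genes of this list were called. With Dox at 12 h, Rack1 was 0.22 lower in log2 (edgeR adjusted p = 0.0238).

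Some factors that assemble ribosomes also fell over these hours. Of 41 tested genes of this list, 17 were lower without Dox at 24 h than at 12 h, with a median of -0.17 in log2, against 10.2% of all tested genes that fell. Dkc1, the pseudouridine synthase of H/ACA particles, had 45.7 and 48.5 CPM at 24 h and 67.6 and 67.5 CPM at 12 h (log2 fold change -0.51, edgeR adjusted p = 1.39e-06). Gnl3, the nucleolar protein nucleostemin, had 48.3 and 50.4 CPM at 24 h and 73.6 and 68.9 CPM at 12 h (log2 fold change -0.52, edgeR adjusted p = 1.78e-06). In both genes the groups were far apart. From 6 h to 12 h, 10 of the 41 were lower without Dox, against 3.07% of all genes, and 20 were lower with Dox, against 10.1%. From 12 h to 24 h with Dox 5 were lower, against 5.98% of all genes. With Dox at 24 h, 4 assembly genes rose against no Dox, where 4.5% of all genes rose, namely Utp20 by 0.24, Polr1b by 0.31, Nolc1 by 0.21 and Gnl3 by 0.26 in log2 (edgeR adjusted p = 0.00255, 0.00329, 0.0116 and 0.0119). None was called at 6 h or 12 h, when 1 and 6 of the 41 had an unadjusted p under 0.05 in edgeR. That share is not given for all genes.

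Many translation factors also have TOP mRNAs, but the list used here was not split by that motif. Of 34 tested, 16 were lower without Dox at 24 h than at 12 h, with a median of -0.16 and against 10.2% of all genes. Eif2s1 at -0.36 and Eif5a at -0.25 were among the 16. Eef2, Eif4b, Pabpc1 and Tpt1 were not called there, at 0.10, -0.02, -0.06 and -0.02. Between 6 h and 12 h without Dox 4 were lower, against 3.07% of all genes. With Dox, 16 were lower and 1, Eif4b, was higher at 12 h than at 6 h, against 10.1% of all genes that fell, and 6 were lower at 24 h than at 12 h, against 5.98%. For Dox against no Dox, 2 were called, both lower at 12 h, where 3.51% of all genes fell. Eef1a1, the elongation factor that brings aminoacyl-tRNA, had 2785 and 2861 CPM with Dox and 3297 and 3148 CPM without, apart by -0.19 in log2 (edgeR adjusted p = 0.0154). Eif1ax was the other, at -0.20 (edgeR adjusted p = 0.034).

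Of 23 regulators of these genes, 5 were called for Dox at 24 h, 2 of them higher, where 11% of all genes were called. Mycn, a MYC family activator, had 188 and 209.8 CPM with Dox at 24 h, against 137 and 137 CPM without. The groups did not overlap, and the log2 fold change was 0.53 (edgeR adjusted p = 2.34e-07). Mxd1, which competes with MYC proteins for their partner MAX, had 40.0 and 42.3 CPM with Dox at 24 h and 60.8 and 57.8 CPM without, a log2 fold change of -0.53 (edgeR adjusted p = 1.01e-05). Mycn was also higher with Dox at 12 h, by 0.27, as were Mycl by 0.66 and Rictor by 0.24 (edgeR adjusted p = 0.00626, 0.0171 and 0.0211). At 6 h, 1 of the 23, Tsc1, was called, at -0.28 (edgeR adjusted p = 0.0215). At 24 h Eif4ebp2 was higher with Dox by 0.19, and Tsc1 and Rheb were lower, at -0.22 and -0.26. In cells without Dox between 12 h and 24 h, Mycn fell by 0.45 in log2 and Mxd1 rose by 0.62. Mxd4, Mnt and Akt1s1 were called higher there too, at 0.36, 0.26 and 0.25, and Cnbp and Ssb lower, at -0.38 and -0.32. Myc was not called, at -0.02 (edgeR adjusted p = 0.871). Between 6 h and 12 h without Dox, 2 ribosomal protein genes fell. Over those hours Mycn fell by 0.34 (edgeR adjusted p = 0.000472) and Mxd1 rose by 0.47 (edgeR adjusted p = 0.000402). Mxd4 was called higher there as well, and Cnbp and Ssb lower. With Dox, Mycn was called lower and Mxd1 higher too. They had -0.26 and 0.30 at 12 h over 6 h, and -0.19 and 0.34 at 24 h over 12 h. Cnbp was called lower with Dox over both spans, at -0.40 and -0.22, and Mxd4 higher, at 0.24 and 0.32. Ssb was called lower with Dox, at -0.25, and Tsc1 higher, at 0.28, at 12 h over 6 h only. Akt1s1 was called higher, at 0.22, at 24 h over 12 h only.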

How the data were processed

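Single 75-base reads came from a strand-specific kit, per the labels' protocols. Whole-number read counts per gene, not normalized, were deposited by the authors, and the authors also deposited RPKM values (reads per length and library size) for the same genes. The submitters' processing notes name the build GRCm38, edgeR 3.8.5, R 3.1.0, Bowtie2 2.21, bcl2fastq 2.16.0.10 and also SAMtools 0.1.19. Not given in the sources used here are the counting tool and its strand setting, the annotation release, how reads that match several places were handled, and whether a splice-aware step was run. Bowtie2 itself does not split reads across introns, and the part of this in the levels was not tested.

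In R 4.3.3, edgeR 4.0.16 was run on the counts. Genes passed filterByExpr, libraries were scaled by TMM, and the quasi-likelihood model held a mean for each of the 6 groups, which left 6 residual degrees of freedom. Calls were made at a Benjamini-Hochberg adjusted p under 0.05 over all tested genes, and the procedure was checked on simulated counts. SE is the size of the log2 fold change over the root of its F. CPM uses the scaled library size. The 2 libraries of a group differed by more than counting noise (chi-square per degree of freedom of 2.63 to 4.61). Alternatives used limma 3.58.1, on log2(RPKM + 0.1), and DESeq2 1.42.0.

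The genes and lists were chosen with earlier results of these data known. Genes were named by adjusted p (up to 5 called per Dox comparison and direction, or the 3 of smallest p, and up to 3 in the other comparisons), by highest and lowest RPKM, and from fixed pairs and lists. Comparisons between hours within Dox cells, the blocking by depth, the sums with copies and the minimum of 100 counts were added after the data were seen. Unique words came from GENCODE M21 transcripts, where Rps4l had no protein-coding one.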

Additional observations from a re-analysis of the deposited data

Results flagged for a closer look

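The effect of Dox on Rpl23 differed between 24 h and 12 h, by 0.33 in log2 (Dox over no Dox at 24 h minus the same at 12 h; edgeR adjusted p = 0.0257). Rpl23 had 292 and 294 CPM with Dox at 24 h against 263 and 276 CPM without, and 268 and 264 CPM with Dox at 12 h against 318 and 301 CPM without. Leaving out any 1 of 6 of the 8 libraries ended this call.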

How the results depend on the processing

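The counts below are of ribosomal protein genes called, out of 78 unless stated. Except where given above, the share of all genes called in the same fit is not given, so these counts cannot be set against it. No filter on low counts gave 2 for Dox at 6 h, 9 at 12 h, 1 at 24 h, 8 for the Dox effect at 12 h minus 6 h, 3 at 24 h minus 12 h, 8 for no Dox at 12 h over 6 h and 17 for Dox at 24 h over 12 h. DESeq2 gave 0 for Dox at 24 h, 1 for no Dox at 12 h over 6 h and 14 at 24 h over 12 h, and 9 and 4 for Dox at 12 h over 6 h and 24 h over 12 h. Limma on RPKM gave 1 for Dox at 12 h, 1 at 24 h, 0 for the effect at 24 h minus 12 h, 1 and 14 for no Dox at 12 h over 6 h and 24 h over 12 h, and 6 for Dox at 12 h over 6 h. Upper-quartile scaling gave 1 for no Dox at 12 h over 6 h, and 13 and 4 for Dox at 12 h over 6 h and 24 h over 12 h. Total counts as the only scaling gave 1 for Dox at 24 h, 1 for no Dox at 12 h over 6 h, and 11 and 15 for Dox at 12 h over 6 h and 24 h over 12 h. With pseudogene copies added, 0 of 79 were called for Dox at 24 h and 44 for no Dox at 24 h over 12 h, and Rpl10a turned to -0.027 for Dox at 24 h. Among genes with a mean of at least 100 counts, 1 was called for Dox at 24 h. The cause was not tested in any of these.

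Leaving out 1 library at a time, with the lone library of a group assumed to vary like the other groups, gave 0 to 3 calls for Dox at 6 h, 0 to 9 at 12 h and 0 to 3 at 24 h, 0 to 7 for the effect at 12 h minus 6 h and 0 to 1 at 24 h minus 12 h. It gave 0 to 2 for no Dox at 12 h over 6 h and 8 to 32 at 24 h over 12 h, and 2 to 27 and 2 to 14 for Dox at 12 h over 6 h and 24 h over 12 h. The median log2 fold change lay between -0.055 and 0.097 for Dox at 6 h, -0.17 and -0.017 at 12 h, -0.23 and -0.017 for the effect at 12 h minus 6 h, -0.089 and 0.065 for no Dox at 12 h over 6 h, and -0.33 and -0.19 at 24 h over 12 h. For Dox at 12 h over 6 h it lay between -0.23 and -0.054. Rpl5, Rpl7 and Rpl10a were called for no Dox at 24 h over 12 h under all 15 alternatives run for single genes.

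With the replicate number as a block, 0, 4 and 1 genes were called for Dox at 6, 12 and 24 h, and 1 for no Dox at 12 h over 6 h. In the main fit the numbers did not pair the libraries, since not every pair passed a correlation of 0.1. That limit cannot decide whether libraries of the same number belong together. Same-numbered Dox and no Dox libraries had correlations of deviations of -0.286, 0.063 and 0.068 at 6, 12 and 24 h. Between hours they were 0.089 and 0.086 without Dox (12 h with 6 h, 24 h with 12 h) and 0.159 and -0.074 with Dox, and over the 78 genes alone 0.255 and 0.381 without Dox and 0.046 and -0.244 with Dox. A block pairing the deep and the shallow libraries, added after the data were seen, gave 0, 4 and 1. Depth limits genes such as Rps13 and Rpl38, whose rows held few reads.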
